A study of Mus musculus with 4 samples.

Results

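The genes described here are Ifit1, Ifit2, Ifit3, Isg15, Oasl2, Bst2, Rnf213, Irf7 and Ifi27, 9 of the 27998 genes in the files. They were chosen by symbol as genes that cells switch on in response to type I interferon. Nuclei of mouse hippocampus were profiled by droplet-based 3′ single-nucleus RNA sequencing, with 1 pooled library per genotype. The groups were P301S/EKO (7 hippocampi), P301S (8), EKO (7) and WT (7), all on strain B6 and all 9 months old. P301S is read here as a human tau transgene carrying that change, and EKO as loss of apoE. The promoter that drives the transgene is not given in the sources used here. LDL receptor overexpression, which the series' title names beside tau-associated neurodegeneration, was not analysed here. With 1 pool per genotype no replicate error exists, so no test was made, and each 95% interval below covers counting error only.

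Type I interferons are secreted proteins that bind a receptor made of the Ifnar1 and Ifnar2 chains on nearly every cell. The receptor's kinases, Jak1 and Tyk2, start a signal that acts through a short element in the promoters of target genes. In brain, microglia and the cells of vessel walls are known for strong target gene expression, and a microglial interferon state has been described in models of amyloid and tau.

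Promoter sequence is shown for the 4 genes whose window holds that element's core, so that its place before each gene can be seen. The core was searched as GAAA, any 2 bases and GAAA again, on both strands, in the 250 bases before each RefSeq start (build GRCm38.p6). Of the 9 genes, 8 had a window in the RefSeq table; Ifi27 is named only. Capitals mark each match. In Isg15 and Bst2 the matches overlap and run along the gene's own strand, whereas in Ifit1 and Ifit3 they lie on the opposite strand.

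Isg15: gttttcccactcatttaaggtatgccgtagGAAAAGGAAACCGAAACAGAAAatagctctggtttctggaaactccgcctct

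Bst2: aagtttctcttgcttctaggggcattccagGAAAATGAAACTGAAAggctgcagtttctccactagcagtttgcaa

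Ifit1: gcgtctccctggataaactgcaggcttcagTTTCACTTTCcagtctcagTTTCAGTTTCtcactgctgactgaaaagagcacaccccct

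Ifit3: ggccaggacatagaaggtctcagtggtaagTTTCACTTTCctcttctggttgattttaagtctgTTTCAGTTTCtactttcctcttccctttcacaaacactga

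The Isg15 stretch lies at chr4:156200845-156200926 on the minus strand, with 3 matches that end 56 to 68 bases before the start. The Bst2 stretch lies at chr8:71537557-71537632 on the minus strand, with 2 matches ending 114 and 120 bases before it. The Ifit1 stretch lies at chr19:34640755-34640843 on the plus strand, with 2 matches ending 75 and 94 bases before it. The Ifit3 stretch lies at chr19:34583343-34583446 on the plus strand, with 2 matches ending 112 and 146 bases before it. The same letters were in 978 of 32851 windows of that length (2.98%), and in 936 of 27025 genes with a window (3.46%). The other letters searched were TTC, any 3 bases and GAA on both strands, which stand for the element of interferon gamma signalling. They were found in Ifit2 and Bst2 among the 8 genes, in 7.02% of all windows and in 8.13% of genes with a window. A match describes letters and is not evidence that a factor binds.

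In the GENCODE annotation of GRCm38, Ifit2, Ifit3 and Ifit1 lie in that order on the plus strand of chromosome 19, from base 34550694 (the start of Ifit2) to base 34650009 (the end of Ifit1). The other genes are on chromosomes 4 (Isg15), 5 (Oasl2), 7 (Irf7), 8 (Bst2), 11 (Rnf213) and 12 (Ifi27). Irf7 overlaps Phrf1, a gene on the other strand with 192, 227, 208 and 252 UMIs in P301S/EKO, P301S, EKO and WT. The strand setting of the authors' counting is not given in the sources used here, so reads of the pair could not be separated. Of the 26 windows of 50 bases tiled over the last 300 bases of Ifit3, 1 was shared with Ifit3b, its near copy, which had 121 UMIs in all. Isg15 shared 1 of 26 windows with the gene model AC151275.1.

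The 4 libraries kept 5274, 2860, 5199 and 5234 nuclei in P301S/EKO, P301S, EKO and WT, with medians of 1421, 2142, 1444 and 1899.5 UMIs (unique molecules). Apoe was at 19.6, 6402, 16.4 and 1932 CPM, so both libraries labelled EKO were low for it. Levels in CPM are the UMIs of a gene scaled to all UMIs of the class in that library. Library pairs shared 19 to 69 cell barcodes. Every kept P301S nucleus had at least 1000 UMIs, whereas 1221 of P301S/EKO, 1039 of EKO and 126 of WT nuclei had fewer. Classes were named from marker genes in a clustering that left out every gene on the interferon lists used here. The levels of those genes did not shape the classes, whereas genes off the lists, such as B2m, were not left out. The endothelial-like class had 35, 37, 26 and 54 nuclei, the microglia-like class 338, 319, 137 and 226, and the astrocyte-like class 199, 117, 202 and 284. Neurons had 4204, 2069, 4466 and 4165 nuclei and include an unnamed cluster of 90 nuclei led by immediate early genes. The endothelial-like nuclei had endothelial markers at 17730 to 20499 CPM and pericyte markers at 5844 to 7108 CPM. All 7 pericyte markers were at least 1.5-fold above other nuclei there, and no cluster was named for pericytes. The class may therefore hold pericyte nuclei as well, which was not tested. Astrocyte markers were at 1811 to 2357 CPM and 12 neuronal genes at 3843 to 6360 CPM in the endothelial-like class. All 12 endothelial markers were seen in that class in every library, and all 13 microglia markers in the microglia-like class.

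Summed without Ifi27, the interferon genes were, among the named classes, highest in endothelial-like, smooth muscle-like and fibroblast-like nuclei on the CPM scale. They were higher in both libraries with the tau transgene than in both without it in every class of the plot by class. Ifi27 made up most of the summed UMIs in microglia-like nuclei, astrocyte-like nuclei and neurons and had smaller folds, so levels are given both for all 9 genes and for the 8 without it, a split chosen after the values were seen. Summed over the 8 genes, endothelial-like nuclei stood at 2104, 1220, 580.1 and 561.1 CPM in P301S/EKO, P301S, EKO and WT. Smooth muscle-like nuclei stood at 646, 524, 249.7 and 226 CPM. Fibroblast-like nuclei stood at 389, 560.0, 205 and 139 CPM, from 10, 54, 10 and 5 UMIs. Among the named classes these had the 3 highest levels in each of the libraries, and the fibroblast-like intervals overlap those of smooth muscle in all 4. Without the 2 highest nuclei of each library, the fibroblast-like fold for P301S/EKO over EKO was 1.08, from 4 and 7 UMIs.

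**Figure D1:**
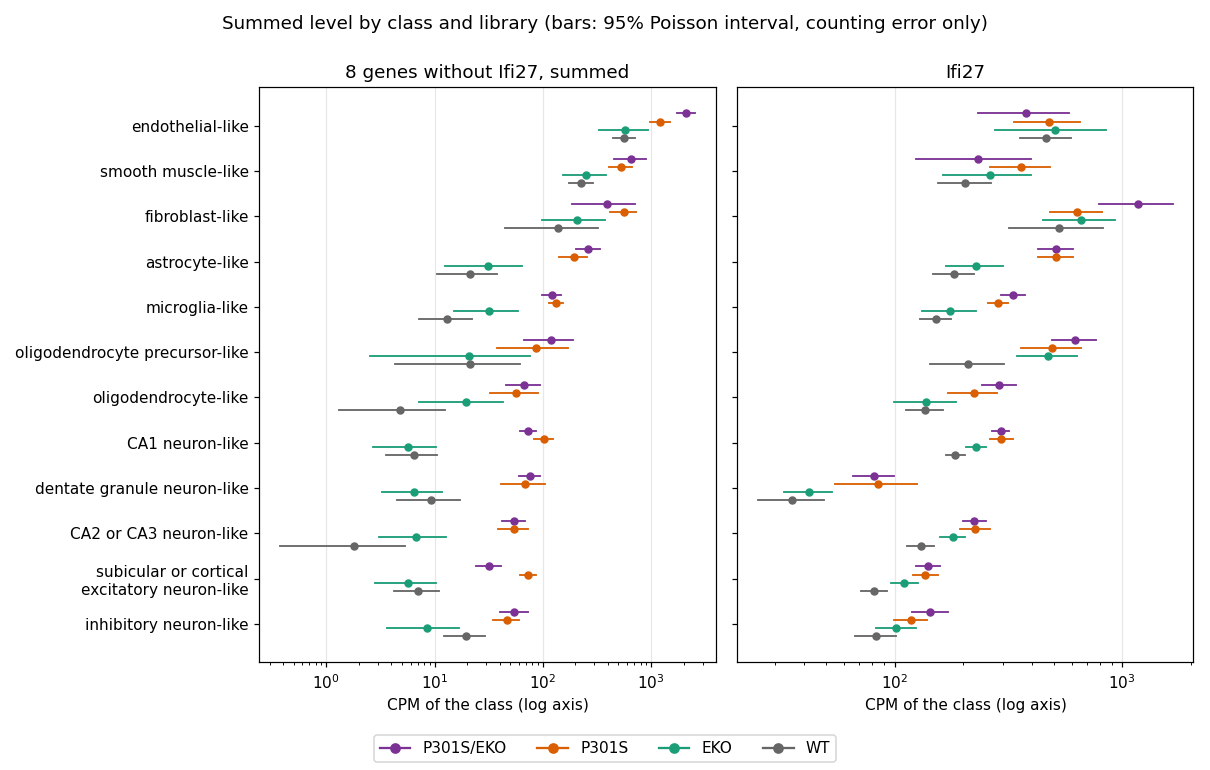
Summed CPM of the 8 genes without Ifi27 (left) and CPM of Ifi27 (right) in each cell class, on log axes, with 1 point per library and bars for the 95% Poisson interval. For the 8 genes the P301S/EKO and P301S points lie to the right of the EKO and WT points in each class drawn, and endothelial-like nuclei reach 2104 CPM in P301S/EKO.

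After the vessel and fibroblast classes, astrocyte-like nuclei came next in both tau libraries, at 264, 193, 31.1 and 21.1 CPM of the 8 genes. Microglia-like nuclei stood at 121, 133, 31.8 and 13.1 CPM. Their intervals overlap those of astrocyte-like nuclei in P301S, EKO and WT and lie below them in P301S/EKO. Oligodendrocyte precursor-like nuclei had 118, 87.4, 21.0 and 21.1 CPM, and oligodendrocyte-like nuclei 67.0, 56.4, 19.7 and 4.83 CPM. All neurons together had 60.3, 69.2, 6.32 and 7.71 CPM. Choroid plexus epithelium-like nuclei, with no nucleus in EKO, had 3, 7 and 2 UMIs of the 8 genes in P301S/EKO, P301S and WT, too few to place.

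Set beside other cells of the same library, endothelial-like nuclei had 17.4-fold the 8-gene level of microglia-like nuclei in P301S/EKO (13.1 to 23.2), 9.19-fold in P301S (7.10 to 11.8), 18.2-fold in EKO (7.78 to 45.0) and 42.8-fold in WT (24.0 to 82.1). Of the microglia-like nuclei 47.9%, 59.2%, 40.9% and 79.2% carried much neuronal RNA. Without those the microglia-like 8-gene level was 165, 167, 25.4 and 41.8 CPM, against 121, 133, 31.8 and 13.1 CPM with them. The ratios are therefore lower without those nuclei in P301S/EKO, P301S and WT, most so in WT, and higher in EKO. Against astrocyte-like nuclei the ratios were 7.97, 6.33, 18.6 and 26.6, and against neurons 34.9, 17.6, 91.7 and 72.8. With Ifi27 included, the ratio over microglia-like nuclei was 5.49, 4.05, 5.26 and 6.22. That 9-gene ratio depends on the scaling: with median-of-ratios in place of CPM its log2 value was 0.45, -0.11, -0.07 and 0.53. In CPM it was 2.46, 2.02, 2.40 and 2.64. A scaling acts on all genes of a class alike, so the 8-gene and single-gene ratios between these classes are subject to the same shift. Ratios over astrocyte-like nuclei and neurons were not computed under that scaling. Microglia markers summed to 303, 411, 72.5 and 74.8 CPM in endothelial-like nuclei, with 6, 5, 11 and 9 of the 13 at 0. T cell markers were all at 0 there in each library, and perivascular macrophage markers were at 0 to 25.7 CPM.

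The Ifit proteins bind foreign RNA and hinder its translation. Ifit1 had 20, 11, 0 and 11 UMIs in endothelial-like nuclei of P301S/EKO, P301S, EKO and WT, which is 379, 141, 0 and 82.3 CPM. In microglia-like nuclei it had 14, 27, 2 and 0 UMIs (18, 19.5, 6.36 and 0 CPM). In neurons it had 91, 135, 7 and 7 UMIs (12.9, 26.8, 0.903 and 0.782 CPM), so both tau libraries were high and the other two were close together. P301S neurons had 34.2-fold the Ifit1 level of WT neurons (16.2 to 86.8), and P301S/EKO neurons 14.2-fold that of EKO neurons (6.63 to 36.4). P301S microglia-like nuclei were at least 6.94-fold higher than WT, where none of the 1068826 UMIs was Ifit1, against a floor of 3 UMIs.

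Ifit3 had lower counts. There were 10, 7, 2 and 5 UMIs of it in endothelial-like nuclei (190, 89.9, 72.5 and 37.4 CPM). In microglia-like nuclei it had 8, 19, 1 and 1 UMIs, and in neurons 41, 20, 5 and 15 UMIs (5.79, 3.97, 0.645 and 1.68 CPM). The neuronal ratio was 8.98 for P301S/EKO over EKO (3.55 to 29.1) and 2.37 for P301S over WT (1.15 to 4.97). Ifit2 was scarcely seen: over all nuclei it had 11, 6, 1 and 10 UMIs, and no class passed the minimum of 20 UMIs over a pair of libraries.

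**Figure D2:**
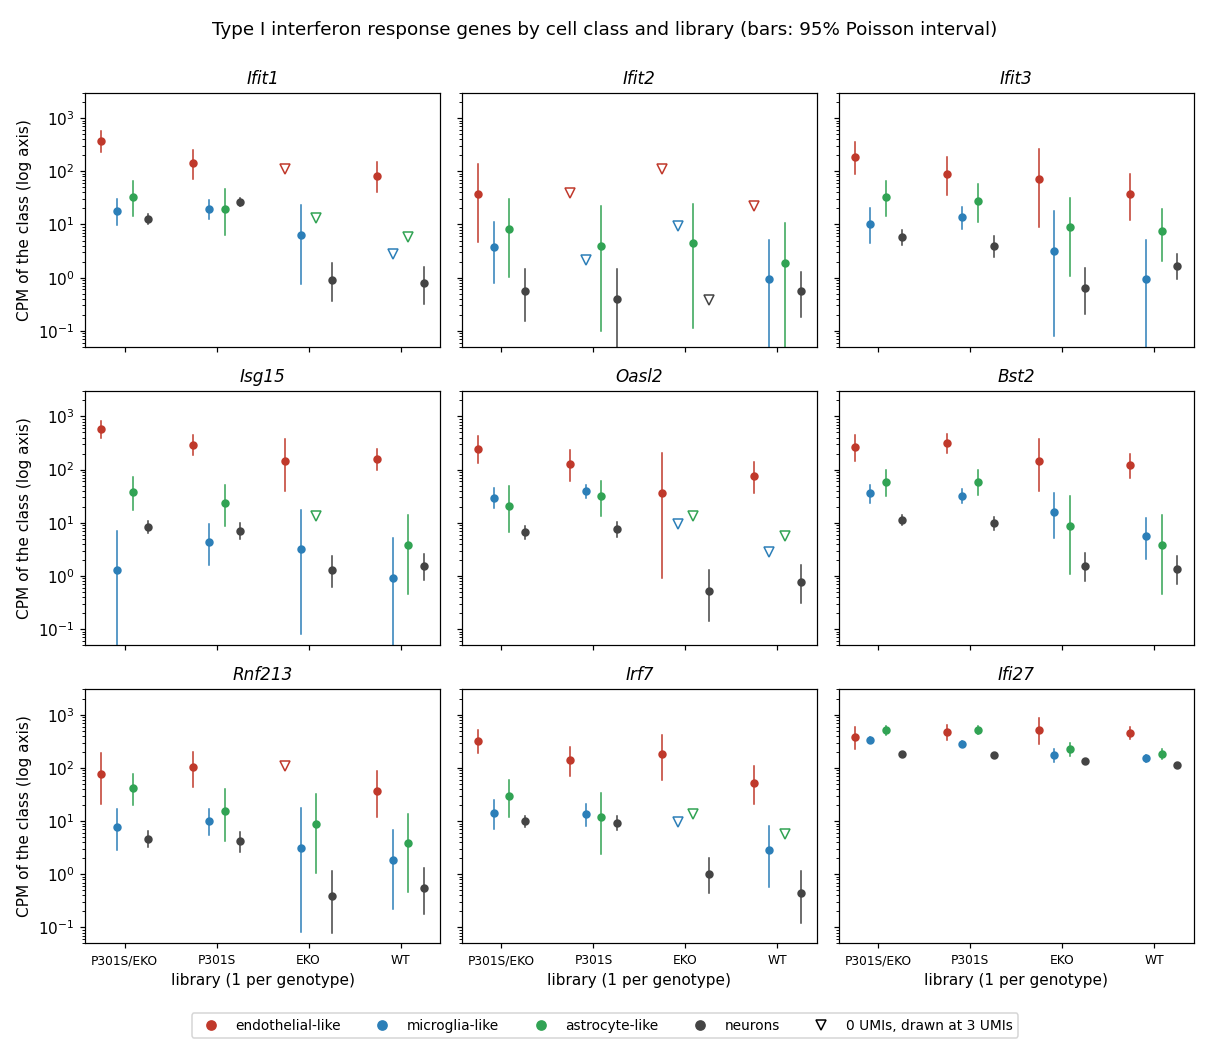
CPM of each of the 9 genes in endothelial-like, microglia-like and astrocyte-like nuclei and in neurons, by library, on a log axis with 95% Poisson intervals; open triangles stand at 3 UMIs where none was counted. Endothelial-like points are the highest for Isg15 in every library, while Ifi27 lies between 112 and 512 CPM throughout.

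Isg15, a ubiquitin-like protein that is joined to other proteins during the response, was far higher in endothelial-like than in microglia-like nuclei. Endothelial-like nuclei had 31, 23, 4 and 21 UMIs (588, 295, 145 and 157 CPM), whereas microglia-like nuclei had 1, 6, 1 and 1 UMIs (1.29, 4.33, 3.18 and 0.936 CPM). In P301S the endothelial-like level was 68.3-fold the microglial one (27.0 to 205). In neurons Isg15 had 60, 36, 10 and 14 UMIs, with ratios of 6.57 for P301S/EKO over EKO (3.34 to 14.4) and 4.56 for P301S over WT (2.40 to 9.16). The neuronal levels of the 2 tau libraries, 8.48 and 7.14 CPM, overlap in their intervals.

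Oasl2, a member of the oligoadenylate synthetase family that senses double-stranded RNA, was seen in microglia-like nuclei of the tau libraries alone. It had 23, 54, 0 and 0 UMIs there (29.6, 39.0, 0 and 0 CPM). For the counts of 0, a floor of 3 UMIs stands at 9.54 CPM in EKO and 2.81 CPM in WT. Against a floor of 3 UMIs, P301S/EKO was at least 3.10-fold higher than EKO, and P301S at least 13.9-fold higher than WT. In neurons it had 47, 39, 4 and 7 UMIs, with ratios of 12.9 (4.70 to 49.2) and 9.89 (4.37 to 26.2) in the same pairs. Endothelial-like nuclei had 13, 10, 1 and 10 UMIs (246, 128, 36.3 and 74.8 CPM).

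Bst2, or tetherin, holds budding virus particles at the cell surface. It had 28, 45, 5 and 6 UMIs in microglia-like nuclei (36.0, 32.5, 15.9 and 5.61 CPM) and 81, 49, 12 and 12 in neurons (11.4, 9.72, 1.55 and 1.34 CPM). P301S microglia-like nuclei had 5.78-fold the WT level (2.46 to 16.6), and P301S neurons 7.25-fold (3.80 to 15.0). In endothelial-like nuclei the levels were 265, 321, 145 and 120 CPM from 14, 25, 4 and 16 UMIs, with 2.68-fold for P301S over WT (1.38 to 5.38). Astrocyte-like nuclei had 14, 15, 2 and 2 UMIs, a ratio of 15.4 for P301S over WT (3.58 to 139).

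Rnf213, a large ATPase and ubiquitin ligase whose human gene is tied to a disease of brain arteries, was low throughout. It had 6, 14, 1 and 2 UMIs in microglia-like nuclei and 33, 21, 3 and 5 in neurons, where the ratios were 12 (3.78 to 61.4) for P301S/EKO over EKO and 7.46 (2.74 to 25.3) for P301S over WT. Endothelial-like nuclei had 4, 8, 0 and 5 UMIs of it.

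Irf7 is the transcription factor that amplifies interferon production. Endothelial-like nuclei had 17, 11, 5 and 7 UMIs (322, 141, 181 and 52.4 CPM), microglia-like nuclei 11, 19, 0 and 3, and neurons 70, 47, 8 and 4 (9.89, 9.32, 1.03 and 0.447 CPM). The neuronal level was 9.58-fold in P301S/EKO over EKO (4.60 to 23.1) and 20.9-fold in P301S over WT (7.63 to 79.7). Its partner across strands, Phrf1, was at 21.7, 30.4, 23.5 and 21.0 CPM over all nuclei and did not share this order.

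Ifi27, a small membrane protein of the ISG12 family, had another pattern. In endothelial-like nuclei it was at 379, 475, 508 and 464 CPM, with overlapping intervals in all 4 libraries. In neurons it had 1323, 872, 1045 and 1006 UMIs (187, 173, 135 and 112 CPM), a ratio of 1.39 for P301S/EKO over EKO (1.28 to 1.5) and 1.54 for P301S over WT (1.40 to 1.69). In astrocyte-like nuclei it was at 512, 511, 227 and 182 CPM, 2.25-fold (1.61 to 3.19) and 2.81-fold (2.14 to 3.69) in the same pairs. In endothelial-like nuclei neither pair differed beyond counting error, at 0.75-fold (0.36 to 1.60) and 1.02-fold (0.66 to 1.56).

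For P301S over WT, at least 20 UMIs over both libraries were asked of a gene before it was counted. Of the 9 genes, 6 passed in microglia-like nuclei and 5 of them were at least 2-fold higher, beside 7.93% of all 10546 genes that passed. In neurons 8 passed and 7 were 2-fold higher, beside 5.71% of all genes. In endothelial-like nuclei 5 passed and 1, Bst2, was 2-fold higher, beside 2.88%; of its 25 UMIs in P301S 9 were in 1 nucleus, and with equal weight per nucleus 0 genes were 2-fold higher. In astrocyte-like nuclei 1 passed, Ifi27, and it was 2-fold higher, beside 9.19%. None was 2-fold lower, beside 1.85%, 0.752%, 5.02% and 7.06% of all genes in microglia-like nuclei, neurons, endothelial-like and astrocyte-like nuclei. A gene absent from WT passes only if it is high in P301S, so a count among those that passed leans towards higher. The median log2 ratio over those that passed was 2.92 in microglia-like nuclei (2.62 with genes at 0 in WT set to their floor), against 0.09 over all genes, and 2.77 in neurons, against 0.21 over all genes.

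The summed 8-gene level gave the same comparison with more counts. P301S over WT was 10.1-fold in microglia-like nuclei (5.89 to 18.9, from 184 and 14 UMIs) and 9.13-fold in astrocyte-like nuclei (4.68 to 19.5, from 49 and 11). It was 8.98-fold in neurons (6.92 to 11.8, from 349 and 69) and 2.17-fold in endothelial-like nuclei (1.59 to 2.98, from 95 and 75). The endothelial-like interval lies below the other three, but without nuclei that carry much neuronal RNA the microglia-like fold was 4.00 (1.63 to 12.8) and its interval overlaps the endothelial-like one. With Ifi27 the folds were 2.54, 3.46, 2.02 and 1.65 in the same order of classes.

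P301S/EKO over EKO, a pair that shares no library with the one above, gave 3.80-fold in microglia-like nuclei (1.98 to 8.18), 8.48-fold in astrocyte-like nuclei (3.88 to 22.0), 9.54-fold in neurons (7.09 to 13.1) and 3.63-fold in endothelial-like nuclei (2.14 to 6.57). With Ifi27 the folds were 2.19, 3.01, 1.75 and 2.28. Of the 9 genes, 7 of 8 that passed were 2-fold higher in neurons, beside 2.02% of all genes, and 2 of 3 in microglia-like nuclei, beside 5.4%. In endothelial-like nuclei the count was 2 of 4, beside 7.5%, and in astrocyte-like nuclei 1 of 1, beside 6.44%. None was 2-fold lower, beside 2.15%, 4.17%, 4.41% and 0.788% of all genes in microglia-like, endothelial-like and astrocyte-like nuclei and neurons. A gene absent from EKO passes only if it is high in P301S/EKO, so these counts lean towards higher too.

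**Figure D3:**
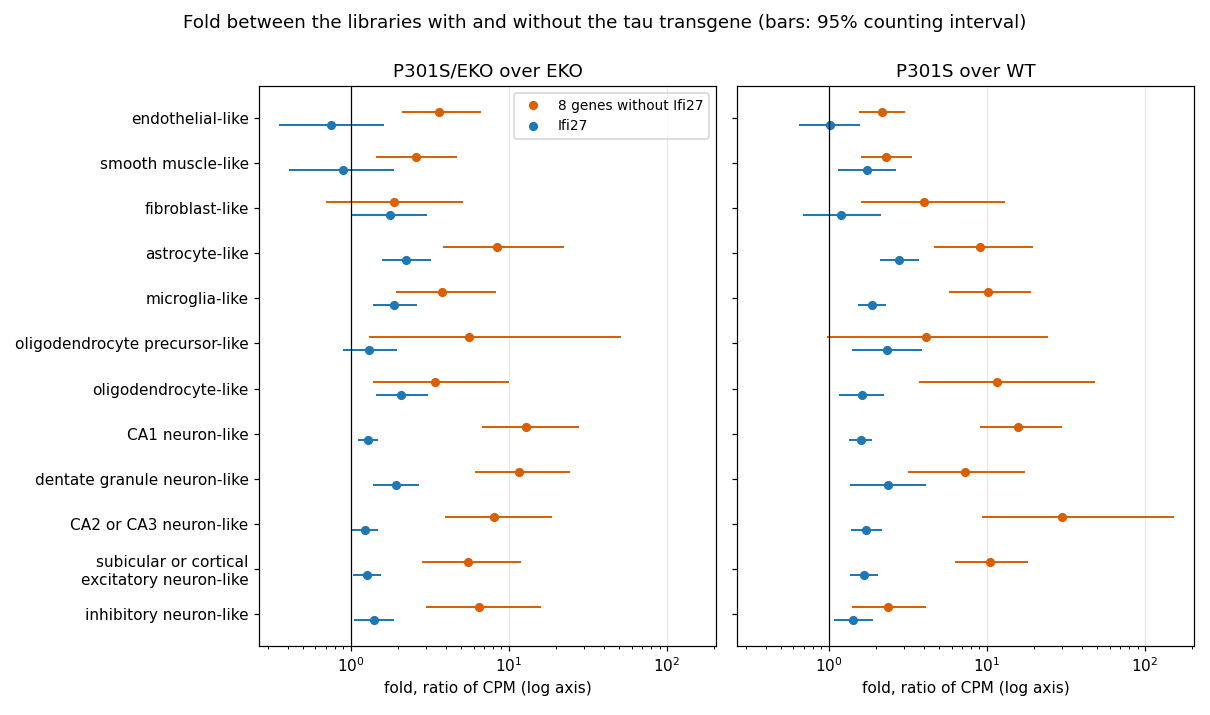
Ratio of CPM between libraries with and without the tau transgene, P301S/EKO over EKO (left) and P301S over WT (right), by class, for the 8 genes without Ifi27 and for Ifi27 alone; axes are log and bars are 95% counting intervals. The 8-gene points exceed the Ifi27 points in every class drawn, reaching 29.8-fold in CA2 or CA3 neuron-like nuclei for P301S over WT. Ifi27 was set apart after its smaller folds were seen, so this order partly restates that choice.

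Within neurons every named type was higher in the tau libraries. CA1 neuron-like nuclei had 73.3, 102, 5.66 and 6.40 CPM of the 8 genes, which is 12.9-fold for P301S/EKO over EKO (6.83 to 27.6) and 15.9-fold for P301S over WT (9.18 to 29.4). CA2 or CA3 neuron-like nuclei had 54.1, 54.2, 6.69 and 1.82 CPM, with 8.09-fold (4.03 to 18.4) and 29.8-fold (9.48 to 150) in the same pairs; the WT level there rests on 3 UMIs. Dentate granule neuron-like nuclei had 75.9, 67.8, 6.5 and 9.36 CPM. Inhibitory neuron-like nuclei had 54.8, 46.3, 8.49 and 19.4 CPM, and their P301S over WT ratio, 2.39 (1.43 to 4.10), was the lowest of the neuron types. Subicular or cortical excitatory neuron-like nuclei had 31.8, 73.3, 5.71 and 7.00 CPM.

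Single nuclei weighed on some of these levels. In P301S subicular or cortical neurons 2 nuclei with 16 and 15 UMIs held 23.7% of the 131 UMIs; without them the level was 56.3 CPM. In CA2 or CA3 neuron-like nuclei the P301S level was 32.8 CPM without the 2 highest nuclei and the ratio of P301S over WT was 53.8, with 1 WT UMI left, and in the unnamed cluster of P301S/EKO 22 of 25 UMIs sat in 2 nuclei. Over all neurons, leaving out the 2 highest nuclei of each library gave 9.64-fold for P301S/EKO over EKO and 8.97-fold for P301S over WT. In endothelial-like nuclei it gave 7.51-fold and 1.92-fold, since 10 of the 16 EKO UMIs came from 2 nuclei. In microglia-like nuclei it gave 5.74-fold for P301S/EKO over EKO.

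RNA of other cells was looked for beside the neuronal values. Microglia markers summed to 301.1, 495, 142 and 133 CPM in neurons of P301S/EKO, P301S, EKO and WT, with none of the 13 at 0, so this background was also higher in the tau libraries. Endothelial markers summed to 107, 141, 76.1 and 149 CPM, with none of the 12 at 0. In P301S CA1 neuron-like nuclei 102 CPM of the 8 genes stood beside 480 CPM of microglia markers; in P301S microglia-like nuclei 133 CPM stood beside 6916 CPM. Neurons with 2 or more of the 8 genes numbered 47, 35, 1 and 1. In those of P301S/EKO microglia markers were at 360.0 CPM, against 300.2 CPM in its other neurons, and endothelial markers at 94.7 CPM, against 107 CPM. In those of P301S microglia markers were at 272 CPM, against 500.1 CPM in its other neurons, and endothelial markers at 132 CPM, against 142 CPM. The part of stray RNA in the neuronal levels beyond these values was not tested.

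The microglia-like class carried neuronal RNA to different degrees. Nuclei whose neuronal share exceeded 50% of that of CA1 neuron-like nuclei were 47.9%, 59.2%, 40.9% and 79.2% of microglia-like nuclei in P301S/EKO, P301S, EKO and WT. Microglia markers were lowest in WT, at 9463, 6916, 8865 and 3926 CPM. With the mixed nuclei left out, an alternative chosen after the data were seen for the 8-gene sum, the levels were 165, 167, 25.4 and 41.8 CPM from 46, 63, 4 and 5 UMIs. The fold for P301S/EKO over EKO was then 6.5 (2.37 to 24.9). For P301S over WT the 8-gene fold was then 4.00 (1.63 to 12.8), from 63 and 5 UMIs. Of the 9 genes, 1 was then past 2-fold for that pair in place of 5. Neither the number of genes that still passed the UMI minimum nor the share of all genes is given for this setting. The lower count therefore does not show that the difference was lost. In astrocyte-like nuclei mixed nuclei were 3.02%, 7.69%, 1.49% and 18.7%, and the folds without them were 8.77 for P301S/EKO over EKO and 8.02 for P301S over WT.

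The share of nuclei with any of the 8 genes was compared after each nucleus was thinned to 1000 UMIs. In endothelial-like nuclei it was 69.6%, 51.4%, 50% and 37.7%, from 23, 37, 14 and 53 nuclei deep enough, and the intervals of all 4 libraries overlap. In microglia-like nuclei it was 10.2%, 11.9%, 1.77% and 2.22%, in astrocyte-like nuclei 22.1%, 16.2%, 2.94% and 1.53%, and in neurons 5.16%, 5.22%, 0.612% and 0.760%. Before thinning the microglia-like shares were 19.2%, 34.5%, 5.84% and 6.19% at median depths of 1792, 3279, 1877 and 4021 UMIs, and the neuronal ones 7.18%, 10.2%, 1.07% and 1.54% at 1449.5, 2135, 1479.5 and 1880.0. The endothelial-like shares before thinning were 80.0%, 62.2%, 30.8% and 70.4% at 1308, 1531, 1047 and 1903 UMIs. Nuclei left out for depth were 12, 0, 12 and 1 endothelial-like, 63, 0, 24 and 1 microglia-like, 104, 0, 134 and 23 astrocyte-like and 835, 0, 709 and 87 neurons. Before thinning, microglia-like nuclei with 2 or more of the 8 genes numbered 17, 36, 2 and 0, and endothelial-like ones 24, 13, 2 and 13. After thinning they numbered 4, 3, 0 and 0, and 10, 7, 2 and 3.

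**Figure D4:**
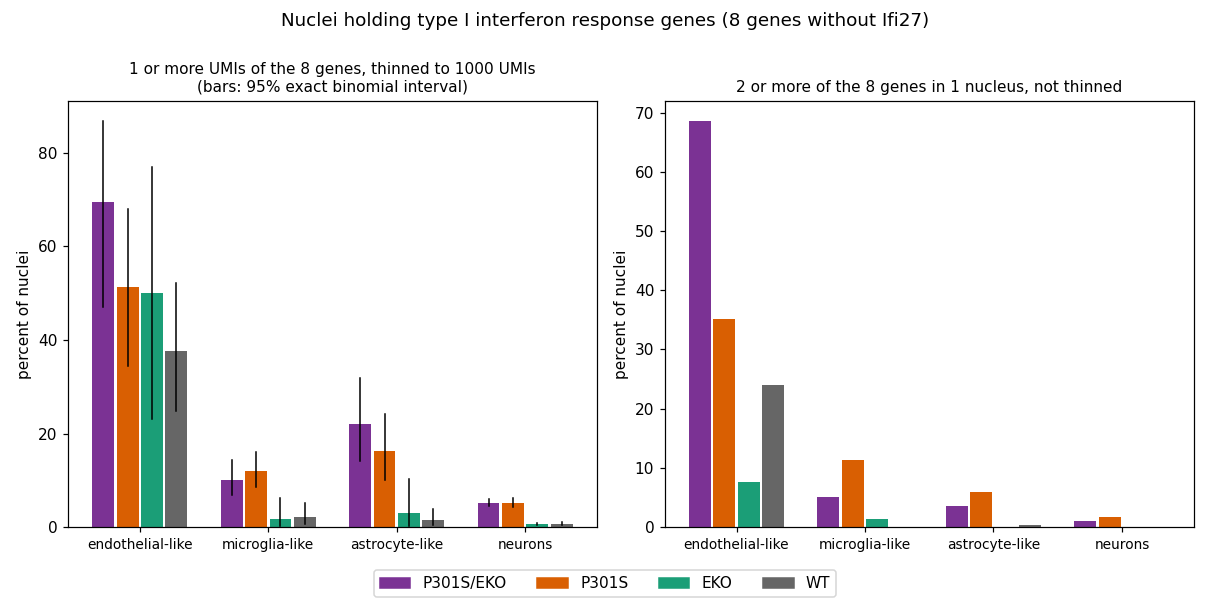
Percent of nuclei with at least 1 UMI of the 8 genes after thinning to 1000 UMIs, with 95% exact binomial intervals (left), and percent with 2 or more of the 8 genes without thinning (right), by class and library. After thinning, neurons of P301S/EKO and P301S reach 5.16% and 5.22%, above 0.612% in EKO and 0.760% in WT.

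With the tau transgene in both libraries, P301S/EKO over P301S asks what the loss of apoE changes. It shares the P301S library with the comparison to WT and the P301S/EKO library with the comparison to EKO. The 8-gene level was 1.72-fold in endothelial-like nuclei (1.3 to 2.29), 0.91-fold in microglia-like nuclei (0.70 to 1.17), 1.37-fold in astrocyte-like nuclei (0.93 to 2.03) and 0.87-fold in neurons (0.76 to 1.01). With Ifi27 the folds were 1.46, 1.08, 1.10 and 1.02. In endothelial-like nuclei 2 of the 6 genes that passed, Ifit1 (2.68-fold, 1.23 to 6.20) and Irf7 (2.28-fold, 1.01 to 5.39), were 2-fold higher, beside 4.41% of all genes. Without the 2 highest nuclei of each library the Ifit1 ratio there was 4.44. Isg15 was 1.99-fold (1.12 to 3.57). None was 2-fold higher in microglia-like nuclei (7 passed), astrocyte-like nuclei (2 passed) or neurons (8 passed), beside 1.52%, 3.57% and 0.683% of all genes. Ifit1 alone was 2-fold lower, in neurons, at 0.48-fold (0.36 to 0.63), beside 6.94% of all genes; in the microglia-like, endothelial-like and astrocyte-like classes none was lower, beside 7.23%, 5.23% and 5.63%.

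In some types Ifit1 was not the only gene 2-fold lower. Of those that passed, 2 of 6 were lower in CA1 neuron-like nuclei and 2 of 5 in subicular or cortical ones. The count was 1 of 3 in inhibitory neurons and 0 of 2 in each other named type. Without the 2 highest nuclei of each library the 8-gene sum, Ifit1 included, was 0.53-fold in subicular or cortical neurons. In CA1 it was 0.80-fold, and for CA2 or CA3, dentate granule and inhibitory types 1.42, 1.56 and 1.26. The Ifit1 difference was unequal between types. Subicular or cortical neurons had 6 UMIs in P301S/EKO and 57 in P301S, at 3.34 and 31.9 CPM, and CA1 neuron-like nuclei 25 and 30 UMIs, at 13.3 and 30.5 CPM. Inhibitory neuron-like nuclei had 4 and 16 UMIs, at 4.56 and 13.2 CPM, a ratio of 0.34 (0.08 to 1.07). Dentate granule neuron-like nuclei had 31 and 11 UMIs, at 26.7 and 37.3 CPM, and CA2 or CA3 neuron-like nuclei 23 and 21 UMIs. Of the 57 UMIs, 24 were in 2 nuclei, with 13 and 11; without the 2 highest nuclei of each library the levels were 2.23 and 18.6 CPM. In all neurons the ratio without the 2 highest nuclei of each was 0.53.

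Without the tau transgene, EKO over WT gave ratios of the 8 genes of 1.03 in endothelial-like nuclei (0.56 to 1.79), 2.43 in microglia-like nuclei (0.97 to 5.88), 1.48 in astrocyte-like nuclei (0.49 to 4.17) and 0.82 in neurons (0.56 to 1.2). None of these intervals excludes 1, and the counts, 10 and 14 UMIs in microglia-like nuclei, leave them wide. Without the 2 highest nuclei of each library the endothelial-like ratio was 0.51, and without mixed nuclei the microglia-like ratio was 0.61, from 4 and 5 UMIs. With Ifi27 the folds were 1.06, 1.26, 1.27 and 1.18; the neuronal direction thus turns with that gene. Of the genes that passed, which were 1 in microglia-like, 3 in endothelial-like and 1 in astrocyte-like nuclei and 4 in neurons, none was 2-fold higher, beside 3.49%, 5.12%, 3.41% and 0.852% of all genes. Ifit3 was 2-fold lower in neurons, at 0.39-fold (0.11 to 1.11), beside 2.52% of all genes. None was 2-fold lower in the other 3 classes, beside 7.49%, 10.3% and 6.13%.

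Upstream of these genes, the ligands were nearly absent. Of the 10 interferon genes on the list, Ifnb1, Ifna1, Ifna2, Ifna4, Ifna5, Ifne, Ifng, Ifnl2 and Ifnl3 had no UMI in any kept nucleus of any library. Ifnk, a type I interferon known best from skin, had 0, 28, 0 and 30 UMIs in P301S/EKO, P301S, EKO and WT. It overlaps Mob3b, on the opposite strand, which had 30, 51, 15 and 48 UMIs in the same libraries.

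Few receptor genes passed 2-fold. For P301S over WT, 1 of 4 in microglia-like nuclei, Ifnar1, was higher, none of 4 in neurons was, and 1 of 3 in endothelial-like nuclei, Ifnar2, was lower, beside 7.93% and 5.71% of all genes higher and 5.02% lower in those classes. Ifnar1 was at 40.9, 55.9, 46.1 and 38.5 CPM and Ifnar2 at 15.6, 17.7, 15.1 and 18.4 CPM over all nuclei. Ifnar1 was at 360.2, 244, 254 and 127 CPM in endothelial-like nuclei, from 19, 19, 7 and 17 UMIs, and at 43.7, 67.8, 41.4 and 29.9 CPM in microglia-like nuclei. Ifngr1 and Ifngr2, chains of the interferon gamma receptor, were at 31.5, 34.3, 21.0 and 24.6 CPM and at 43.4, 36.1, 42.4 and 41.2 CPM. Ifnlr1, of the interferon lambda receptor, had 0 to 2 UMIs per library.

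Other target genes of the pathway, 56 in the files, moved in part with the 9. As for the 9, a gene near 0 in WT or EKO passes only if it is high in the tau library. The counts for P301S over WT and P301S/EKO over EKO therefore lean towards higher. For P301S over WT, 17 of the 25 that passed in microglia-like nuclei were 2-fold higher, beside 7.93% of all genes, and none lower, with a median log2 ratio of 1.96 against 0.09 over all genes. In neurons 14 of 25 were higher, beside 5.71% of all genes, and 1 lower, with a median of 1.03 against 0.21. For P301S/EKO over EKO, 8 of 13 were higher in microglia-like nuclei and 12 of 24 in neurons, beside 5.4% and 2.02% of all genes, with medians of 1.77 (1.57 with a gene at 0 in EKO at its floor) against 0.01, and 1.00 against 0.00. In endothelial-like nuclei 3 of 10 were higher for P301S over WT, beside 2.88%, with a median of 0.79 against -0.07 over all genes. For P301S/EKO over EKO the count there was 1 of 3, beside 7.5%, with -0.06 against -0.01. For P301S/EKO over P301S, 6 of 32 were lower, beside 7.23% of all genes, and none higher in microglia-like nuclei, with a median of -0.38 against -0.11 over all genes. In neurons 9 of 35 were lower, beside 6.94%, and none higher, with -0.47 against -0.20. In endothelial-like nuclei, where the 8-gene sum was higher, 1 of 11 was lower, beside 5.23%, and none higher, and the median was 0.00 against -0.01.

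Some of these target genes stood out by a rule on interval and size. In P301S over WT microglia-like nuclei they were Sp100, a nuclear body protein (61 and 1 UMIs, 47.0-fold, 8.13 to 1887), and Ifi204, a DNA-binding protein (61 and 2 UMIs, 23.5-fold, 6.24 to 199). Lgals3bp, a secreted glycoprotein, had 160 and 11 UMIs there (11.2-fold, 6.10 to 22.9), and Ifi44 had 20 and 0. In astrocyte-like nuclei of the same pair Ifitm3, which blocks virus entry, was at 311 and 34.5 CPM (9.00-fold, 5.34 to 16.0). Lgals3bp was at 193 and 26.8 CPM and Irgm1, an immunity-related GTPase, at 62.9 and 7.67 CPM. Socs3, an inhibitor of cytokine signalling, was at 102 and 3.84 CPM. Endothelial-like nuclei had Ifitm3 at 1862 CPM in P301S and 860 CPM in WT (2.16-fold, 1.68 to 2.79).

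Ifitm3 and Lgals3bp recurred in P301S/EKO over EKO. Astrocyte-like nuclei had 285 and 31.1 CPM of Ifitm3 (9.15-fold, 4.21 to 23.6), and Lgals3bp was 4.29-fold there (2.06 to 10.0) and 5.93-fold in microglia-like nuclei (2.62 to 16.6). Ifi204 had 22 and 0 UMIs in the microglia-like nuclei of that pair. In P301S/EKO over P301S the genes picked were all lower: Ifi44 (1 and 20 UMIs) and Ifitm2 (3 and 37 UMIs) in microglia-like nuclei, and Socs3 (4 and 26 UMIs) and the chemokine Cxcl10 (3 and 17 UMIs) in astrocyte-like nuclei. In EKO over WT only Irf8, a transcription factor of microglia, was picked, at 98.6 and 39.3 CPM in microglia-like nuclei (2.51-fold, 1.53 to 4.09). Microglia markers themselves were at 8865 and 3926 CPM in those 2 libraries.

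The sensors, transducers and inhibitors of the pathway were counted in the same way, with the same lean towards higher. In microglia-like nuclei, P301S over WT had 2 of 7 sensors and adaptors, 3 of 9 signal transducers and 2 of 5 inhibitors 2-fold higher, beside 7.93% of all genes, and none lower, with medians of 0.60, 0.45 and 0.18 against 0.09 over all genes. In neurons the counts were 1 of 6, 3 of 8 and 3 of 6, beside 5.71%, with medians of -0.12, 0.16 and 0.87 against 0.21. For P301S/EKO over EKO they were 0 of 3, 2 of 7 and 1 of 3 in microglia-like nuclei and 1 of 5, 0 of 8 and 1 of 6 in neurons, beside 5.4% and 2.02% of all genes.

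The likeness of the genes to each other was described over 47 units of class and library with at least 30 nuclei, which share libraries and depth. Pearson r of log2(CPM + 10) was highest for Ifit3 and Rnf213 (0.91) and for Oasl2 and Bst2 (0.91). It was lowest for Ifit2 and Ifi27 (0.25), and the pairs of Ifi27 ranged up to 0.59. Outside the interferon lists the genes most like the summed log levels of the 9 were B2m (0.93), the light chain of class I antigen presentation, then the ribosomal protein gene Rps27rt (0.91). Ftl1, a ferritin chain, Rps3a1 and Clic1 followed, each at 0.90.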

How the data were processed

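Single-nucleus RNA was counted in 4 pooled libraries, 1 per genotype, grouped by the labels alone. The authors deposited UMI counts, whole numbers for each gene in each barcode. The submitters' processing notes name Cell Ranger, Seurat and mm10; no version and no handling of intron reads is given in the sources used here. Clustering used scanpy 1.11.5 with igraph 0.11.9 and scikit-learn 1.9.0; sums and intervals used scipy 1.17.1, pandas 2.3.3 and numpy 2.4.6 under Python 3.11.15, with matplotlib 3.10.9 for plots.

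A barcode passed with 200 genes or more and a mitochondrial share of UMIs of 5% or less, which left 5576 in P301S/EKO, 2934 in P301S, 5460 in EKO and 5505 in WT. Scrublet's own threshold called 0, 0, 1 and 1 doublets, so the highest scores were removed at 0.8% per 1000 barcodes (302, 74, 261 and 271). Nuclei were clustered together (2000 variable genes, 30 components, 15 neighbours, Leiden resolution 1). Left out were genes that could carry the outcome or genotype: those on the interferon lists, of mitochondria and sex, and Mapt, Prnp and Apoe. The vessel cluster was split again at resolution 0.3 after its markers, not the interferon values, were seen. A cluster was named from at least 3 fixed markers at least 1.5-fold above other nuclei, and the unnamed cluster was counted with neurons.

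UMIs were summed by class and library and scaled to CPM. Intervals are exact Poisson, conditional binomial or Clopper-Pearson at 95%. UMIs of 1 nucleus are not independent, so these intervals are too narrow. For a count of 0, a fold is a bound against a floor of 3 UMIs per library. Counts past 2-fold asked for 20 UMIs over both libraries and used a prior of 0.5 UMI. List genes beyond the 9 were named, up to 4 per direction and class (microglia-like, endothelial-like, astrocyte-like), when their interval lay beyond 1.5-fold; ligands, receptors, Apoe and the 5 genes most alike, among those with at least 200 UMIs, were always given. Ratio intervals were tested on simulated independent Poisson counts. Those lack the dependence between UMIs of 1 nucleus, so the test does not cover it. Genes and lists were chosen with earlier results of these data known.

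Alternatives were median-of-ratios scaling, at least 500 genes or 1100 UMIs per nucleus, doublets kept, resolution 2, libraries clustered alone, mixed nuclei left out, 10% free RNA subtracted, nuclei weighted equally, interferon genes kept in the clustering, a 1.5-fold threshold, a minimum of 1 UMI and a sum without Rnf213. Chosen after seeing the data were the sums without Ifi27, vessel clusters not split and single nuclei left out.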

Additional observations from a re-analysis of the deposited data

Results flagged for a closer look

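Ifit1 differed in direction between classes in P301S/EKO over P301S, which was not tested. It was higher in endothelial-like nuclei, at 379 CPM in P301S/EKO and 141 CPM in P301S, and lower in CA1 neuron-like nuclei (13.3 and 30.5 CPM) and in subicular or cortical excitatory neuron-like nuclei (3.34 and 31.9 CPM). The largest gap between a higher and a lower class was 4.68 on the log2 scale. In inhibitory neuron-like nuclei it was at 4.56 and 13.2 CPM, from 4 and 16 UMIs, with an interval that includes 1. The endothelial-like values rest on 20 and 11 UMIs and the subicular or cortical ones on 6 and 57. Without the 2 highest nuclei of each library the ratio was 4.44 in endothelial-like nuclei, 0.41 in CA1 neuron-like nuclei and 0.12 in subicular or cortical ones.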

How the results depend on the processing

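No paired analysis was possible because each genotype has 1 library. Pools, few vessel nuclei (26 to 54 endothelial-like per library), depth below 1000 UMIs in many P301S/EKO and EKO nuclei and stray RNA limit these values, and differences of Ifit2 were not detectable at this depth. The summed log2 ratio of all 9 genes stayed above 0 in the classes compared under all alternatives run that keep the 9 genes, for P301S over WT (neurons 0.83 to 1.31, microglia-like 1.10 to 1.48, endothelial-like 0.49 to 0.93, astrocyte-like 1.60 to 1.85) and for P301S/EKO over EKO (0.78 to 0.83, 1.05 to 1.29, 1.08 to 1.35 and 1.34 to 2.13). Outside endothelial-like nuclei most UMIs of that sum were Ifi27, as in P301S neurons, with 872 of 1221. These ranges therefore do not show how far the sum without Ifi27 moves. For that smaller sum, values are given only without mixed nuclei and without the highest nuclei. Of the values compared across alternatives, 562 sums and counts and 695 single-gene values kept direction and size. A further 74 and 10 moved, and 3 reversed. Where no cause is given, the cause was not tested.

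Without Ifi27, the P301S over WT log2 sum was 3.34 in microglia-like nuclei (1.35 with it), 1.12 in endothelial-like (0.73), 3.19 in astrocyte-like (1.79) and 3.17 in neurons (1.01). P301S/EKO over EKO was 1.93 (1.13), 1.86 (1.19), 3.08 (1.59) and 3.25 (0.81). P301S/EKO over P301S was -0.14 in microglia-like (0.11), 0.46 in astrocyte-like (0.14) and -0.20 in neurons (0.03). EKO over WT was 1.28 in microglia-like nuclei (0.33) and, reversed, -0.29 in neurons (0.23). Endothelial-like over microglia-like was 4.12, 3.20, 4.19 and 5.42 in P301S/EKO, P301S, EKO and WT (2.46, 2.02, 2.40 and 2.64).

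With median-of-ratios scaling that class ratio was 0.45, -0.11, -0.0688 and 0.53, reversed in P301S and EKO. Vessel clusters left unsplit gave 1.86, 1.51 and 1.93 in P301S/EKO, P301S and WT, and leaving out mixed nuclei gave 1.65 in P301S and 2.04 in WT. Neuronal sums were 0.83 for P301S over WT and 0.19 for P301S/EKO over P301S under median-of-ratios, and 1.31 and -0.29 with each library clustered alone, which named no astrocyte or endothelial class in P301S and so gave no value there. Mixed nuclei left out gave -0.17 for EKO over WT in microglia-like nuclei (0.33), and 1100 UMIs per nucleus gave 2.13 for P301S/EKO over EKO in astrocyte-like nuclei (1.59).

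Counts of genes past 2-fold are small, and a change of 1 or 2 genes moves them. For the changed settings here and in the next paragraph, neither the number of genes that passed nor the share of all genes is given. These counts therefore show only how far a setting moves them. With a minimum of 1 UMI a fold can rest on a single count. A 1.5-fold threshold gave 4 higher in endothelial-like nuclei for P301S over WT (1) and for P301S/EKO over P301S (2). With a minimum of 1 UMI, P301S over WT had 1 lower in microglia-like nuclei (0), 4 higher in endothelial-like (1) and 8 higher in astrocyte-like (1). P301S/EKO over EKO had 7, 6 and 8 higher (2, 2 and 1). P301S/EKO over P301S had 1 higher and 1 lower in microglia-like (0 and 0), 4 higher in endothelial-like (2) and 2 higher in astrocyte-like nuclei (0). EKO over WT had 4 higher and 2 lower in microglia-like, 1 higher and 2 lower in endothelial-like and 1 lower in astrocyte-like nuclei (0 each), and 1 higher (0) and 2 lower (1) in neurons.

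For P301S over WT, endothelial-like nuclei had 2 higher at 1100 UMIs per nucleus and under median-of-ratios and 0 with equal weight per nucleus (1), astrocyte-like nuclei 2 with doublets kept or interferon genes kept in the clustering (1), and microglia-like nuclei 1 without mixed nuclei (5). For P301S/EKO over EKO, endothelial-like nuclei had 1 at 500 genes, at 1100 UMIs, at resolution 2, with free RNA subtracted and with interferon genes kept (2). Microglia-like nuclei had 1 with libraries clustered alone, without mixed nuclei and with interferon genes kept (2), and astrocyte-like nuclei 2 with doublets kept and 0 with equal weight (1). For P301S/EKO over P301S, endothelial-like nuclei had 4 higher with equal weight and with interferon genes kept (2), microglia-like nuclei had 1 lower with equal weight (0), and neurons had 0 lower at 1100 UMIs, with doublets kept, equal weight and median-of-ratios (1, Ifit1). For EKO over WT, neurons had 0 lower at 1100 UMIs, with equal weight and with free RNA subtracted (1, Ifit3).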
